A study of Arabidopsis thaliana with 30 samples.

Results

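Pattern-triggered immunity, the response that plants mount to molecules typical of microbes and to their own danger peptides, was followed through 44 Arabidopsis genes. The genes were chosen by locus, as genes known for this response, with earlier results of these data known, and all 44 were present among the 27588 genes of the files. Messenger RNA was measured in 30 rosette libraries from 4-week-old plants, 3 for each of 5 genotypes with each of 2 treatments. From the age of 2 weeks the plants received every 2 days 10 ml of either water or 3 mM sodium bicarbonate, whose solution was buffered with potassium hydroxide, so that sodium and potassium came with the bicarbonate. Light was 120 µmol photons per square metre and second and the temperature 21 °C. The genotypes were the wild type Col-0, the mutant npq4-1, which lacks the photoprotective protein PsbS, the PsbS overexpressor oePsbS, and a pair of lines made by transforming oePsbS. These were oePsbSoeCA1 (the double overexpressor), which carries the β-carbonic anhydrase gene CA1 behind the viral 35S promoter, and oePsbSoeCA1CA2 (the triple overexpressor), which carries CA1 and CA2 behind the rolD and 35S promoters. The 35S promoter is active in most tissues, and both lines carry the PsbS transgene of their parent, so oePsbS is their nearest control. By the paper's immunoblots, however, PsbS protein in both lines was well below that of oePsbS and close to that of Col-0. A difference from oePsbS is therefore not one at equal PsbS protein. For each construct 3 independent lines were selected, and the labels do not say which of them a library came from. Nor do they say whether replicates were separate plants or pools, so a p-value reflects the spread between the samples and nothing beyond it.

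In pattern-triggered immunity, receptor kinases at the cell surface bind flagellin, elongation factor Tu, chitin or Pep peptides. Each works with a partner kinase and passes the signal to cytoplasmic kinases, to the oxidase RBOHD, to calcium-dependent kinases and to a cascade of mitogen-activated protein (MAP) kinases, which reach WRKY transcription factors. Early transcripts then appear within the first hour, and several of them encode brakes: phosphatases, ubiquitin ligases and regulators of cell death. Vesicle fusion by syntaxins and callose at the cell wall complete the response in leaves. Many of the early transcripts are also known to follow touch, wounding and other abrupt stresses.

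The libraries held 15346368 to 18326430 gene counts. Levels are given as CPM, counts scaled to a common library size. With water, PsbS was measured at 1619 ± 114 CPM (SD, n = 3) in Col-0, 2.33 ± 3.43 CPM in npq4-1 and 4059 ± 288 CPM in oePsbS. It stood at 3914 ± 156 CPM in the double and 5366 ± 323 CPM in the triple overexpressor with water. With bicarbonate PsbS stood at 5181 ± 91.8 CPM in oePsbS, 3398 ± 114 CPM in the double and 4578 ± 256 CPM in the triple overexpressor. In the double overexpressor CA1 stood at 16804, 10939.5 and 16544 CPM with water and at 12947, 14747 and 2409 CPM with bicarbonate. The last of these libraries, replicate 3, therefore lacked the excess of CA1 and stood apart from the other 5 of its line, and the calls of its line are given with and without it. With water the triple overexpressor held 3611 to 4071 CPM of CA1 and 1604 to 1883 CPM of CA2, above oePsbS at 2418 to 2564 and 1207 to 1239 CPM. With bicarbonate it held 3342 to 3895 and 1813 to 1919 CPM, which overlapped with oePsbS at 3627 to 4188 and 1769 to 1955 CPM. Leaf mesophyll markers stood far above the root and floral ones. In each library 4 mesophyll genes summed to 49971 to 62252 CPM and 6 guard cell genes to 50.1 to 75.7 CPM. A set of 7 root genes summed to 2.86 to 5.50 CPM and 8 floral genes to 1.28 to 21.7 CPM. A list of 3 touch-induced genes (TCH2, TCH3 and TCH4) rose with bicarbonate in the double and triple overexpressors, as did a group of the members. It summed to 116 to 151 CPM in the double overexpressor and 91.6 to 124 CPM in the triple overexpressor with water, and to 221 to 470.0 CPM and 245 to 539 CPM with bicarbonate. In Col-0 it summed to 94.0 to 103 CPM with water and 97.7 to 164 CPM with bicarbonate, and in npq4-1 to 161 to 209 and 142 to 286 CPM. In oePsbS it summed to 189 to 202 CPM with water and 130.2 to 182 CPM with bicarbonate, and its part in the results was not tested. In bulk tissue, fewer cells of a type and less RNA per cell cannot be told apart.

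A group of the immune genes rose with bicarbonate in both lines that carry carbonic anhydrase transgenes. At the head of the pathway FLS2, EFR, BAK1, CERK1, BIK1 and RBOHD were not called. The receptor LYK5 and the kinase CPK28 were called in the response of the triple overexpressor. Members further along, such as MPK6, MKK4, MKK5, PEN3 and GSL5, were not called either. The calls rest on edgeR's quasi-likelihood test, and a gene was called where the adjusted p was below 0.05 and the fold change exceeded 1 log2 unit in either direction. In the double overexpressor 10 of 40 members tested were called (25%), all higher, against 0.775% of all genes tested. In the triple overexpressor 17 of 41 were called (41.5%), all higher, against 1.31% of all genes. Since the members were chosen with earlier results of these data known, such shares, here and below, are a description only. The median log2 fold change of the members was 0.56 in the double and 0.91 in the triple overexpressor, where the medians of all genes were 0.01 and −0.00. In Col-0 none of 40 members was called (0.313% of all genes) and in npq4-1 none of 41 (0.252%). DESeq2 called none in these genotypes either, and 1 and 5 members respectively had an unadjusted p under 0.05. In oePsbS 1 of 41 members was called, lower, against 1.34% of all genes, and the members' median was −0.26. The called sets of the double and triple overexpressors shared 9 members: CAF1A, CAF1B, AP2C1, HSPRO2, BAP1, PUB22, PUB23, ATL31 and SYP122. Only FRK1 was called in the double overexpressor alone and 8 members were called in the triple overexpressor alone, but the test of the difference between the lines called none of them. These counts changed when single libraries were left out. A fit without a library also has less power, so a lower count need not mean that the library was unusual. In the double overexpressor the count was 8 without the library that lacked the excess of CA1, all 8 among the 10, with log2 fold changes from 1.46 for HSPRO2 to 2.34 for BAP1. It was 4 without water replicate 1, 2 without water replicate 2, 5 without water replicate 3 and 15 without bicarbonate replicate 1. In the triple overexpressor it was 9 without bicarbonate replicate 2, 11 without water replicate 2 and 20 without bicarbonate replicate 1. In oePsbS the call was lost without any 1 of 4 libraries, water replicates 1 and 3 and bicarbonate replicates 2 and 3, and 2 members were called without bicarbonate replicate 1. In npq4-1, 1 member was called without bicarbonate replicate 1.

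**Figure D1:**
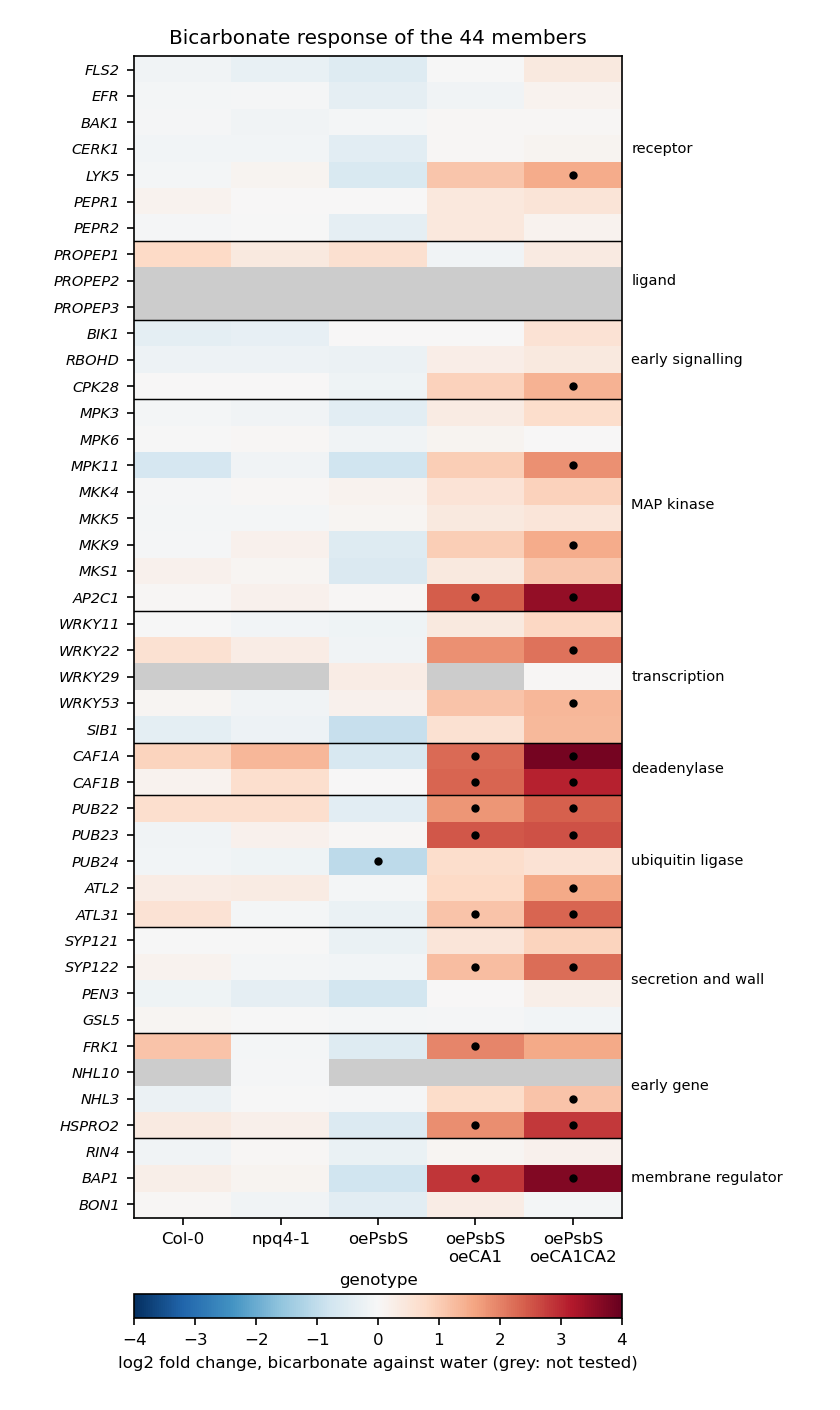
Bicarbonate responses of the 44 members, as log2 fold changes of bicarbonate against water (colour scale) in each of 5 genotypes (columns), with genes grouped by role and a black dot where a gene was called. Dots stand in 10 rows of the double overexpressor, 17 of the triple overexpressor and 1 of oePsbS, FLS2, EFR, BAK1 and CERK1 stay pale throughout, and grey cells were not tested because of low counts.

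With water alone the members differed widely in level. Per length of transcript, in TPM (reads scaled by transcript length and library size) of Col-0 with water, the ABC transporter PEN3 stood highest at 134 ± 18 TPM (SD, n = 3), followed by NHL3 at 108 ± 9.66 and MPK3 at 89 ± 10.7. The libraries of PEN3 and NHL3 overlapped, and those of NHL3 and MPK3 did not. RIN4 (47.9 ± 4.09 TPM) and MPK6 (38.1 ± 2.46) came next. The receptors CERK1 (19.8 ± 0.963 TPM), BAK1 (18.3 ± 1.07) and FLS2 (14.4 ± 0.851) lay in the middle of the list. Several members that rose with bicarbonate were low: AP2C1 stood at 5.71 ± 1.43 TPM, CAF1A at 7.48 ± 1.36, BAP1 at 1.86 ± 0.618 and PUB22 at 0.652 ± 0.219. PROPEP2 and PROPEP3 were too low to be tested, with at most 0.164 and 0.328 CPM in any library, and WRKY29 and NHL10 were tested only in some of the fits.

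FLS2 (AT5G46330), the flagellin receptor, stood at 44.5, 41.3 and 45.6 CPM with water and 39.96, 47.1 and 42.8 CPM with bicarbonate in the double overexpressor. In the triple overexpressor it stood at 31.2, 28.4 and 32.2 CPM with water and 41.7, 42.3 and 35.2 CPM with bicarbonate. The latter groups did not overlap, but the log2 change of 0.39 (SE 0.10, adjusted p = 0.0853) was not called. In oePsbS FLS2 went from 49.1, 47.4 and 57.4 to 37.1, 36.2 and 33.9 CPM, a log2 fold change of −0.52 (adjusted p = 0.00485) that stayed within the fold threshold. EFR (AT5G20480), which binds bacterial elongation factor Tu, stood at 9.92, 8.96 and 9.11 CPM in the double and 7.93, 8.89 and 8.8 CPM in the triple overexpressor with bicarbonate. It lay between 5.25 and 12.8 CPM in all 30 libraries, and its responses ran from −0.35 in oePsbS to 0.14 in the triple overexpressor, none called. BAK1 (AT4G33430), the co-receptor of both, varied little. The gene lay between 31.5 and 40.8 CPM, with 40.5, 36.4 and 37.4 CPM in the double and 38.4, 38.6 and 33.3 CPM in the triple overexpressor with bicarbonate. Its log2 fold changes were 0.05 (SE 0.07, adjusted p = 0.814) and 0.05 (SE 0.10, adjusted p = 0.91). CERK1 (AT3G21630), the kinase through which chitin signals, stood at 31.3, 34.7 and 30.5 CPM in the double and 28.9, 34.6 and 24.4 CPM in the triple overexpressor with bicarbonate, inside the 23.1 to 38.5 CPM of the 18 libraries of Col-0, npq4-1 and oePsbS. It went from 36.6, 35.5 and 29.9 to 26.2, 23.1 and 26 CPM in oePsbS, where the fold change was −0.43 (adjusted p = 0.0168), again within the threshold.

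LYK5 (AT2G33580), the chitin-binding receptor that works with CERK1, was the one receptor called. It stood at 6.75, 6.23 and 5.69 CPM with water and 8.98, 11.4 and 20.03 CPM with bicarbonate in the double overexpressor, and at 7.76, 4.68 and 5.4 CPM and 10.7, 19.5 and 19.6 CPM in the triple overexpressor. All 6 bicarbonate libraries of these lines lay above the other 24, where it ran from 4.23 to 8.89 CPM. The response was 1.49 (SE 0.25, adjusted p = 0.0149) in the triple overexpressor and 1.11 (SE 0.26, adjusted p = 0.0607) in the double overexpressor, where it missed the threshold. In oePsbS the values went the other way, from 8.89, 6.61 and 7.02 to 4.88, 4.23 and 5.42 CPM, with a log2 fold change of −0.62 (adjusted p = 0.0346). PEPR1 and PEPR2, the receptors of Pep peptides, were not called in any comparison, although PEPR1 reached 30.8 CPM in bicarbonate replicate 3 of the double overexpressor and 27.8 CPM in replicate 3 of the triple overexpressor, against 14.4 to 20.7 CPM in Col-0, npq4-1 and oePsbS. Their ligand precursor PROPEP1 stayed between 0.285 and 1.66 CPM.

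**Figure D2:**
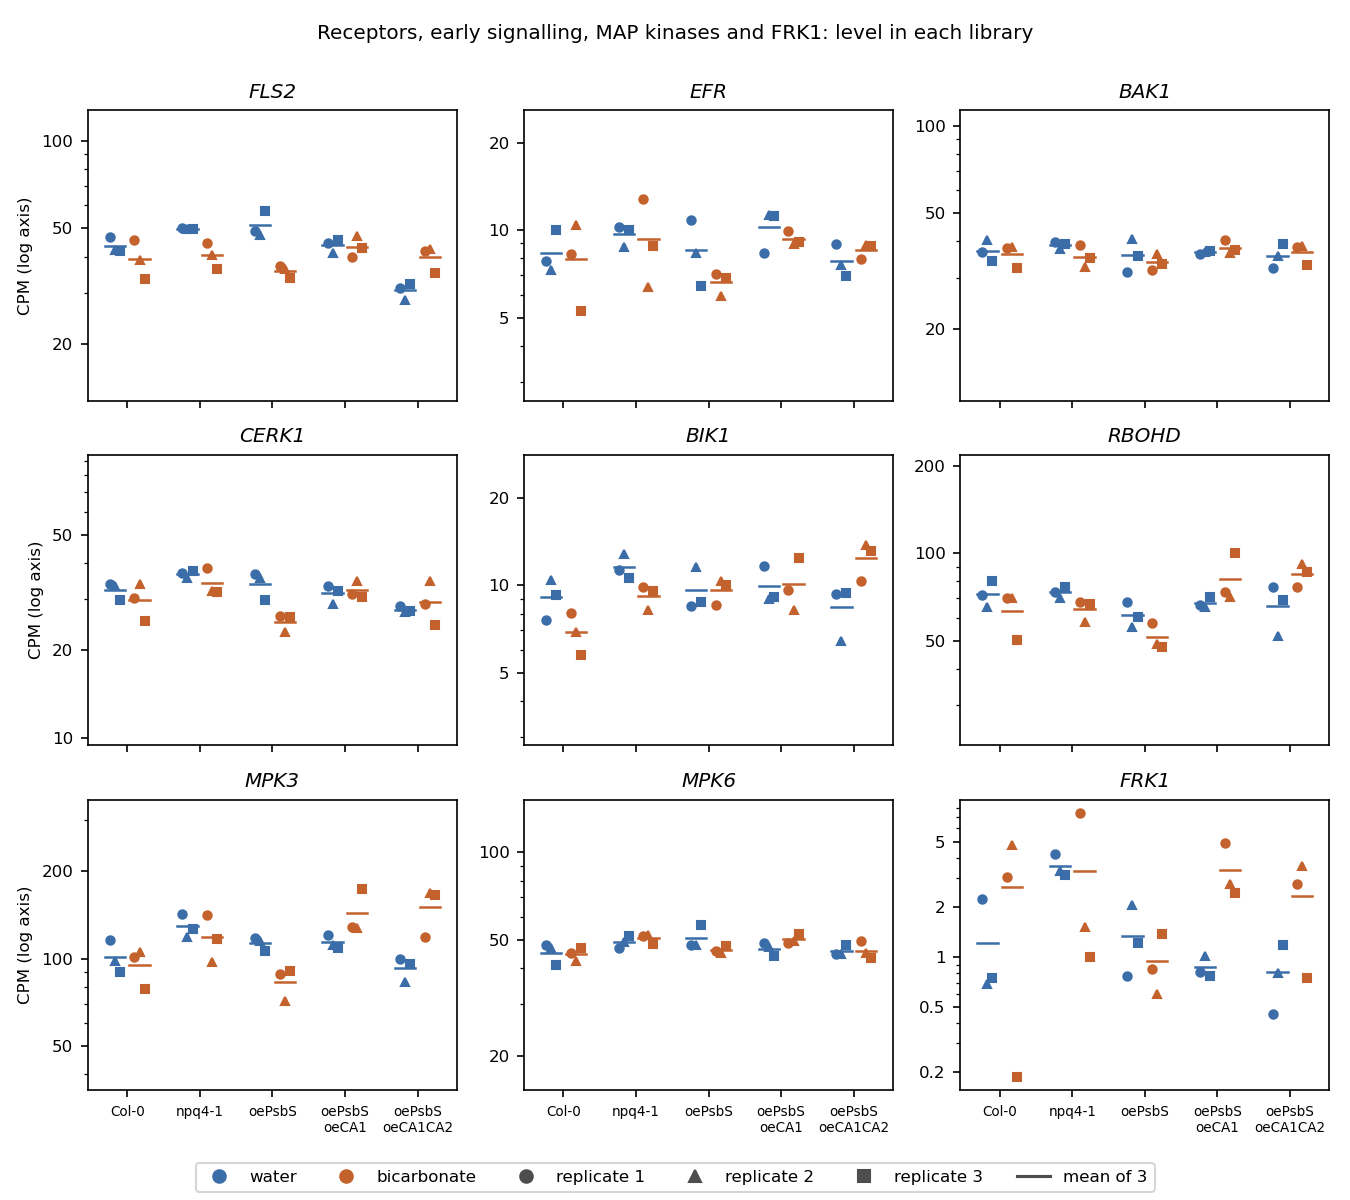
Level of FLS2, EFR, BAK1, CERK1, BIK1, RBOHD, MPK3, MPK6 and FRK1 in each of the 30 libraries, in CPM on a log axis, by genotype, with water in blue, bicarbonate in orange, symbols for the 3 replicates and a bar for their mean. BAK1 and MPK6 form nearly level rows, 31.5 to 40.8 and 40.9 to 56.4 CPM, while MPK3 reaches 174 CPM and FRK1 spreads from 0.188 to 7.45 CPM.

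Of the genes acting directly after the receptors, CPK28 was called and BIK1 and RBOHD were not. BIK1 (AT2G39660), the cytoplasmic kinase that phosphorylates RBOHD, stood at 9.68, 8.24 and 12.4 CPM in the double overexpressor and 10.4, 13.8 and 13.2 CPM in the triple overexpressor with bicarbonate, against 11.7, 8.99 and 9.12 CPM and 9.31, 6.46 and 9.44 CPM with water. The groups overlapped in the double overexpressor and did not in the triple overexpressor. Its responses of 0.02 (SE 0.17, adjusted p = 0.975) and 0.58 (SE 0.17, adjusted p = 0.158) were not called. RBOHD (AT5G47910), the oxidase of the apoplastic oxidative burst, went from 66.1, 65.4 and 70.8 to 73.6, 70.7 and 99.8 CPM in the double overexpressor and from 76.4, 51.8 and 69 to 76.6, 91.6 and 86.2 CPM in the triple overexpressor, with log2 fold changes of 0.27 (adjusted p = 0.332) and 0.38 (adjusted p = 0.268). CPK28 (AT5G66210), a calcium-dependent kinase known to promote the turnover of BIK1, stood at 24.9, 22.8 and 26.9 CPM with water and 38.2, 67.1 and 87.3 CPM with bicarbonate in the triple overexpressor, groups that did not overlap, and rose by 1.38 (SE 0.24, adjusted p = 0.0175). In the double overexpressor it went from 27.6, 26.5 and 25.7 to 28.2, 44.8 and 78.3 CPM and, with replicate 3 far above the others, was not called (0.92, adjusted p = 0.141). The 18 libraries of Col-0, npq4-1 and oePsbS held 23 to 31.9 CPM.

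Among the MAP kinase genes, AP2C1 rose in both lines, MPK11 and MKK9 rose in the triple overexpressor, and MPK3 and MPK6 were not called in any response. AP2C1 (AT2G30020), a phosphatase that switches off MPK4 and MPK6, stood at 8.38, 7.07 and 6.99 CPM with water and 17.7, 27.2 and 75 CPM with bicarbonate in the double overexpressor. In the triple overexpressor it went from 5.24, 5.88 and 4.87 to 34.2, 62.4 and 86.1 CPM. The other 3 genotypes held 3.76 to 10.5 CPM with either treatment, below all 6 bicarbonate libraries of both lines. Its responses were 2.42 (SE 0.45, adjusted p = 0.0244) and 3.52 (SE 0.31, adjusted p = 0.00186). The value of the double overexpressor was 1.59 without the library that lacked the excess of CA1, and its call was lost in 4 of 13 alternatives. MPK11 (AT1G01560), a kinase activated together with MPK3 and MPK6 by flagellin, went from 2.65, 1.6 and 2.14 to 4.81, 9.36 and 8.18 CPM in the triple overexpressor, a rise of 1.82 (SE 0.28, adjusted p = 0.00925). Its values in the double overexpressor were 3.31, 3.18 and 2.84 CPM and 4.26, 4.2 and 9.9 CPM, and the response of 0.97 (adjusted p = 0.187) was not called. Only 3 of the 6 bicarbonate libraries of both lines lay above the other 24, where MPK11 reached 7.06 CPM. MKK9 (AT1G73500), a MAP kinase kinase tied to ethylene and camalexin, went from 14.7, 12 and 14.9 to 25.7, 26.2 and 30.9 CPM in the double overexpressor and from 11.8, 6.34 and 9.32 to 16.6, 26.9 and 32.5 CPM in the triple overexpressor. In neither line did the groups overlap. The lowest of these bicarbonate values, 16.6 CPM, was below the highest of the other 24 libraries, 23.4 CPM. The triple overexpressor was called at 1.48 (adjusted p = 0.0182), and the double overexpressor, at 0.99 (adjusted p = 0.00431), lay just under the fold threshold. In oePsbS MKK9 fell with an adjusted p under 0.05, within the fold threshold, and the groups did not overlap.

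MPK3 (AT3G45640) went from 121, 111 and 109 to 128, 127 and 174 CPM in the double overexpressor and from 99.8, 82.9 and 95.7 to 119, 169 and 165 CPM in the triple overexpressor, with log2 fold changes of 0.33 (adjusted p = 0.203) and 0.71 (adjusted p = 0.0261). In oePsbS it went from 118, 115 and 106 to 88.3, 71.3 and 90.7 CPM (−0.43, adjusted p = 0.0136). MPK6 (AT2G43790), its close relative, stood at 48.7, 49.7 and 52.5 CPM in the double and 49.7, 45.1 and 43.2 CPM in the triple overexpressor with bicarbonate, and at 48.7, 47.3 and 44.1 CPM and 44.6, 44.6 and 48 CPM with water. Its values hardly varied, with responses of 0.11 (adjusted p = 0.558) and 0.02 (adjusted p = 0.965). MKK4 and MKK5, the kinases that activate MPK3 and MPK6, were not called, although MKK4 in the triple overexpressor missed the threshold narrowly (0.91, adjusted p = 0.0516). MKS1 (AT3G18690), a substrate of MPK4, stood at 2.98, 2.06 and 4.28 CPM with water and 4.33, 7.6 and 7.55 CPM with bicarbonate in the triple overexpressor, 1.07 (adjusted p = 0.116), and at 4.44, 3.6 and 4.92 CPM and 5.48, 4.81 and 6.62 CPM in the double overexpressor, 0.38 (adjusted p = 0.402), with neither called.

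The largest response of the triple overexpressor was that of CAF1A, one of the deadenylases, enzymes that shorten the poly(A) tails of messenger RNA and are known for rapid stress responses. CAF1A (AT3G44260) stood at 7.96, 4.97 and 7.84 CPM with water and 44.9, 107 and 143 CPM with bicarbonate in the triple overexpressor, and at 12.8, 16.2 and 11.2 CPM and 46.1, 65 and 82.1 CPM in the double overexpressor. In both lines every bicarbonate library lay above every water library. The responses were 3.84 (SE 0.39, adjusted p = 0.00212) and 2.27 (SE 0.20, adjusted p = 0.00247). CAF1A also varied in the other genotypes, with 25.8, 7.7 and 6.13 CPM in Col-0 and 40.6, 13.7 and 7.55 CPM in npq4-1 with bicarbonate, against 5.65 to 8.68 CPM with water, and neither response was called. In oePsbS it went from 11.5, 11.2 and 14.3 to 11.1, 6.08 and 6.39 CPM (−0.65, adjusted p = 0.0607). CAF1B (AT5G22250), its paralogue, went from 4.06, 3.66 and 3.55 to 11.7, 14.2 and 31 CPM in the double overexpressor and from 4.14, 2.17 and 3.09 to 15.4, 29.4 and 34 CPM in the triple overexpressor, rises of 2.33 (adjusted p = 0.00997) and 3.08 (adjusted p = 0.00212). Of the other genotypes, one npq4-1 library with bicarbonate reached 11.3 CPM and the other 17 stayed between 2.85 and 5.97 CPM. Without the double-overexpressor library that lacked the excess of CA1, that line's values were 2.05 for CAF1A and 1.79 for CAF1B. CAF1A was called in both lines under every one of 13 alternative settings, and CAF1B under all 13 in the triple and 12 in the double overexpressor.

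**Figure D3:**
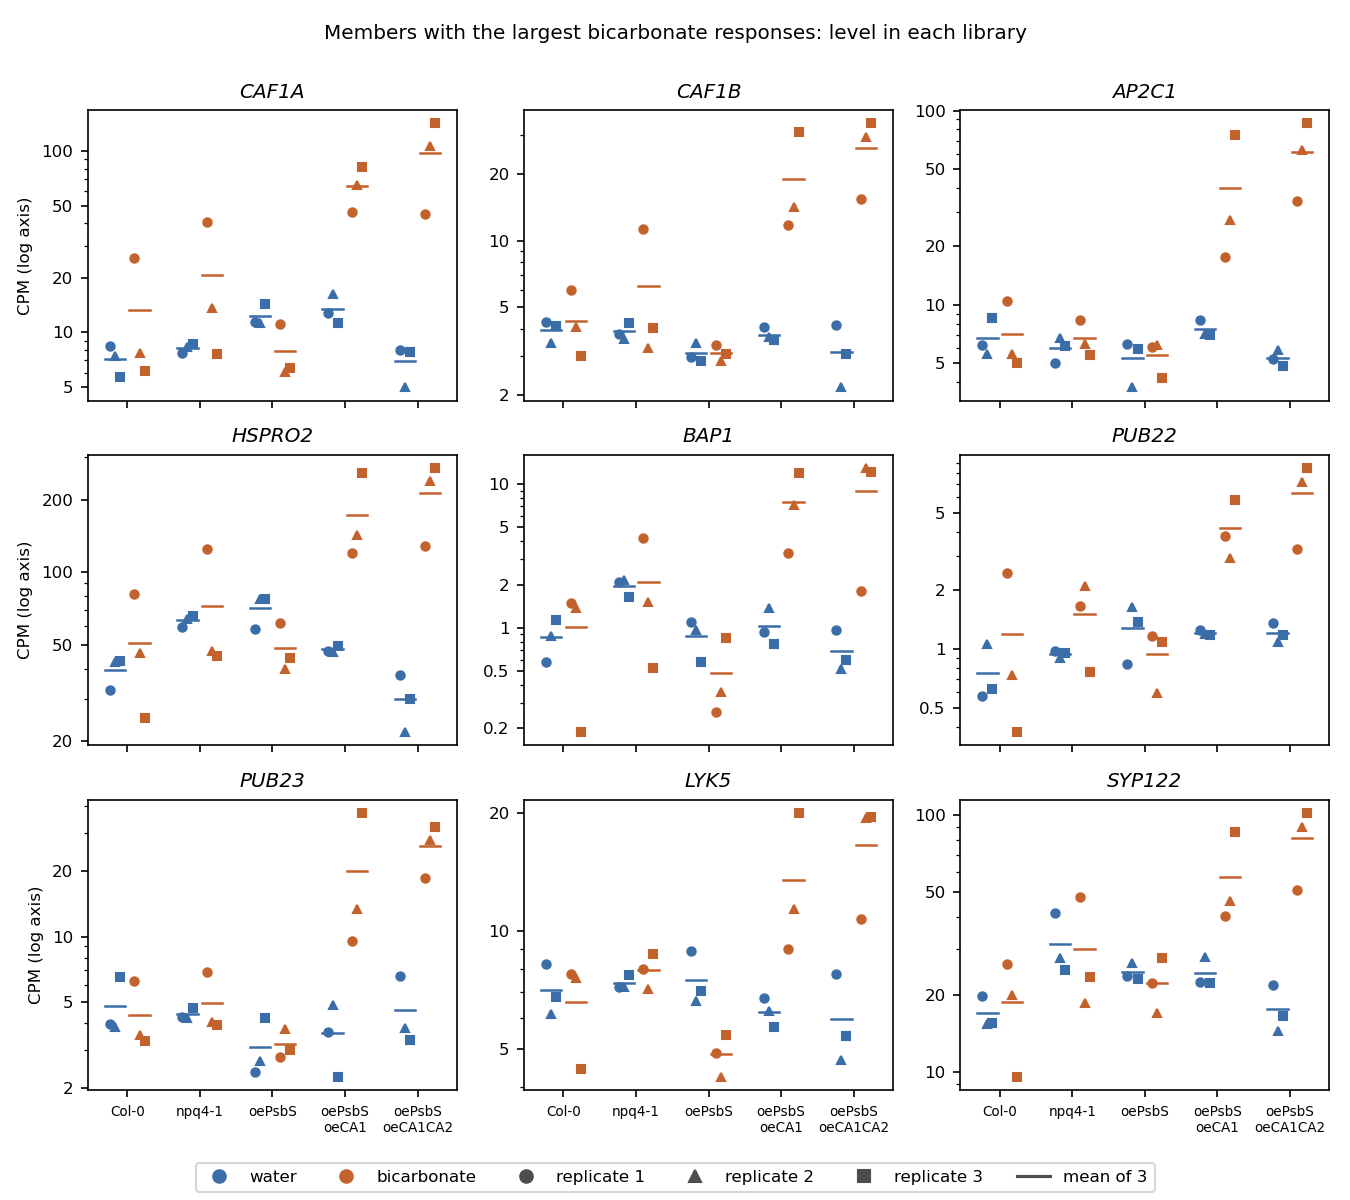
Level of CAF1A, CAF1B, AP2C1, HSPRO2, BAP1, PUB22, PUB23, LYK5 and SYP122 in each of the 30 libraries, in CPM on a log axis, by genotype, with water in blue, bicarbonate in orange, symbols for the 3 replicates and a bar for their mean. The orange points of the double and triple overexpressors stand above their blue points in each panel, and single Col-0 and npq4-1 libraries with bicarbonate, such as the 40.6 CPM of CAF1A, are raised as well.

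The ubiquitin ligases PUB22, PUB23 and PUB24 together restrain immune signalling, and PUB22 and PUB23 rose in both lines. PUB22 (AT3G52450) went from 1.25, 1.2 and 1.18 to 3.79, 2.93 and 5.83 CPM in the double overexpressor and from 1.36, 1.09 and 1.19 to 3.25, 7.24 and 8.49 CPM in the triple overexpressor, 1.78 (adjusted p = 0.0158) and 2.39 (adjusted p = 0.00789). It stayed at 0.375 to 2.46 CPM in the other genotypes, low levels at which the counting error is large. The first value was 1.47 without the library that lacked the excess of CA1. PUB23 (AT2G35930) went from 3.63, 4.86 and 2.25 to 9.57, 13.3 and 37.1 CPM in the double overexpressor and from 6.6, 3.77 and 3.33 to 18.6, 27.9 and 32.1 CPM in the triple overexpressor, 2.48 (adjusted p = 0.0276) and 2.54 (adjusted p = 0.00226). All 6 of these bicarbonate libraries lay above the 2.38 to 6.9 CPM of the other genotypes. In the double overexpressor the value of PUB23 was 1.68 without the library that lacked the excess of CA1, and the call was lost in 4 of 13 alternatives. PUB24 (AT3G11840) was not called in either line and was the 1 member called in oePsbS, where it fell from 7.21, 3.94 and 4.75 CPM to 3.06, 1.73 and 2.83 CPM (−1.05, SE 0.28, adjusted p = 0.0306). Its values were 5.63, 2.34 and 3.67 CPM and 6.77, 5.03 and 6.92 CPM in the double overexpressor (0.69, adjusted p = 0.278), and 4.98, 1.71 and 2.79 CPM and 5.05, 4.95 and 3.87 CPM in the triple overexpressor (0.57, adjusted p = 0.572). The RING-type ligases ATL2 and ATL31 are early targets of elicitors. ATL31 (AT5G27420) went from 4.19, 4.44 and 5.98 to 9.51, 9.23 and 13.8 CPM in the double overexpressor (1.15, adjusted p = 0.0192) and from 3.95, 2.34 and 3.8 to 11.5, 16.8 and 22 CPM in the triple overexpressor (2.33, adjusted p = 0.00306). Without the double-overexpressor library that lacked the excess of CA1, its value in that line was 0.94, under the fold threshold. Of the 6 bicarbonate libraries of both lines, 4 lay above the other 24, where ATL31 reached 10.8 CPM. ATL2 (AT3G16720) went from 14.8, 9.2 and 11.5 to 22.1, 36.9 and 40.6 CPM in the triple overexpressor (1.5, adjusted p = 0.00906), and from 12.7, 14.9 and 12.4 to 18.7, 20.7 and 30.8 CPM in the double overexpressor, where 0.81 (adjusted p = 0.0422) lay under the fold threshold. For ATL2, 5 of the 6 libraries lay above the other 24, which reached 19.7 CPM.

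Of 5 transcription regulators, 2 were called in a response, WRKY22 and WRKY53, both in the triple overexpressor. WRKY22 (AT4G01250), placed below the MAP kinases in flagellin signalling, went from 1.68, 1.49 and 1.43 to 3.85, 7.24 and 9.74 CPM in the triple overexpressor (2.19, SE 0.33, adjusted p = 0.00803). The double overexpressor went from 1.69, 2.16 and 0.592 to 2.98, 4.15 and 8.74 CPM and was not called, at 1.83 (adjusted p = 0.0829). Only 3 of the 6 bicarbonate libraries of both lines lay above the other 24, where WRKY22 reached 4.23 CPM. WRKY53 (AT4G23810), a regulator of leaf senescence and defence, went from 5.89, 6.28 and 9.09 to 12.5, 22 and 18.7 CPM in the triple overexpressor (1.33, adjusted p = 0.0145) and from 5.5, 6.89 and 6.75 to 9.8, 10.6 and 22.4 CPM in the double overexpressor (1.15, adjusted p = 0.077). For WRKY53, 4 of the 6 lay above the other 24, which reached 11.96 CPM. SIB1 (AT3G56710), a partner of WRKY33 that is also found in chloroplasts, stood at 17.1, 11.5 and 18.7 CPM with water and 26.5, 22.4 and 22.5 CPM with bicarbonate in the double overexpressor (0.60, adjusted p = 0.0947). The triple overexpressor held 12.8, 5.6 and 8.73 CPM and 16, 33.1 and 16.5 CPM (1.29, adjusted p = 0.0922), and neither line was called. In oePsbS it went from 19.1, 10.5 and 9.82 to 9.82, 5.48 and 5.3 CPM (−0.93, adjusted p = 0.0507). WRKY11, a negative regulator of basal resistance, had log2 fold changes of 0.38 (adjusted p = 0.236) and 0.82 (adjusted p = 0.0109), within the fold threshold, although its 6 bicarbonate libraries in both lines, 36.8 to 63.1 CPM, lay above the other 24. WRKY29 stayed under 1 CPM in every library.

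At the plasma membrane and wall, the syntaxin SYP122 rose in both lines and the callose synthase was not called. SYP122 (AT3G52400), which acts in secretion beside SYP121, went from 22.4, 28.1 and 22.2 to 40.5, 46.3 and 85.8 CPM in the double overexpressor (1.25, adjusted p = 0.0276) and from 21.7, 14.5 and 16.5 to 51.3, 90.2 and 102 CPM in the triple overexpressor (2.22, adjusted p = 0.0028). Without the double-overexpressor library that lacked the excess of CA1 the first value was 0.84, under the fold threshold. In npq4-1 it stood at 41.6, 27.9 and 25 CPM with water, above the 15.4 to 19.8 CPM of Col-0. Of the 6 bicarbonate libraries of both lines, 4 lay above the other 24, where SYP122 reached 48.1 CPM. SYP121 (AT3G11820), also known as the penetration-resistance gene PEN1, went from 27.7, 23.6 and 26.4 to 34, 56 and 51.7 CPM in the triple overexpressor (0.88, adjusted p = 0.0259) and from 34.5, 25.7 and 29.8 to 33.5, 37.9 and 54.9 CPM in the double overexpressor (0.49, adjusted p = 0.209), neither called. PEN3 stood at 445 to 727 CPM in both lines with bicarbonate and at 411 to 639.8 CPM with water. In oePsbS it went from 712, 566 and 593 to 383, 344 and 389.6 CPM, a log2 fold change of −0.74 (adjusted p = 0.00131) that did not reach the fold threshold. GSL5, the callose synthase of wound and pathogen responses, lay between 52 and 68 CPM in all libraries, with responses from −0.11 in the triple overexpressor to 0.07 in Col-0.

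FRK1 (AT2G19190), the reporter gene of flagellin signalling, was low and variable. It stood at 3.07, 4.73 and 0.188 CPM in Col-0 and 7.45, 1.52 and 0.995 CPM in npq4-1 with bicarbonate, so that both genotypes reached the values of the transgenic lines in single libraries. In the double overexpressor it went from 0.813, 1.02 and 0.77 to 4.9, 2.76 and 2.43 CPM, called at 1.95 (SE 0.34, adjusted p = 0.0193), and at 2.13 without the library that lacked the excess of CA1. In the triple overexpressor it went from 0.453, 0.8 and 1.19 to 2.77, 3.53 and 0.749 CPM and was not called (1.53, adjusted p = 0.26). In a fit of all 30 libraries the double overexpressor was not called either, at an adjusted p of 0.215, and over all 13 alternatives its adjusted p ran up to that value. HSPRO2 (AT2G40000), an early gene of basal resistance named after a nematode-resistance gene of sugar beet, was abundant and rose in both lines. It went from 47.5, 46.9 and 49.6 to 121, 142 and 257 CPM in the double overexpressor and from 37.7, 21.8 and 30.1 to 128, 239 and 270.2 CPM in the triple overexpressor. The responses, 1.85 (SE 0.23, adjusted p = 0.00474) and 2.84 (SE 0.28, adjusted p = 0.002), were called under all 13 alternatives in both lines, and the first was 1.46 without the library that lacked the excess of CA1. With bicarbonate it stood at 81.3, 46.3 and 25.1 CPM in Col-0 and 125, 47.3 and 45.1 CPM in npq4-1, whose replicate 1 lay inside the range of the double overexpressor. In oePsbS HSPRO2 fell with an adjusted p under 0.05, within the fold threshold, and the groups overlapped. NHL3 (AT5G06320), a membrane protein of the same family as NHL10, went from 81.5, 84.2 and 70.2 to 117, 118 and 159 CPM in the double overexpressor (0.74, adjusted p = 0.0144, under the fold threshold) and from 86.7, 69.3 and 68.2 to 115, 177 and 197 CPM in the triple overexpressor (1.13, adjusted p = 0.0107). NHL10 did not exceed 1.56 CPM in any library.

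BAP1 (AT3G61190), which with BON1 holds back cell death, went from 0.938, 1.38 and 0.77 to 3.33, 7.13 and 12 CPM in the double overexpressor and from 0.97, 0.514 and 0.594 to 1.8, 13 and 12.2 CPM in the triple overexpressor. Its responses of 2.85 (SE 0.45, adjusted p = 0.0138) and 3.71 (SE 0.68, adjusted p = 0.023) had wide errors, and replicate 1 of the triple overexpressor with bicarbonate was close to the water libraries. The call in the triple overexpressor was lost in 6 of 13 alternatives, with an adjusted p of up to 0.11, and that in the double overexpressor in 3. The value of the double overexpressor was 2.34 without the library that lacked the excess of CA1. Of the 6 bicarbonate libraries of both lines, 4 lay above the other 24 libraries, where BAP1 reached 4.23 CPM. BON1, its partner, stayed between 12 and 21.3 CPM and RIN4, a membrane regulator targeted by bacterial effectors, between 29.4 and 44.9 CPM, with no call in any comparison.

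The members' promoters were read from the TAIR10.1 genome to see whether the genes that rose share known stress motifs. Each window held the 250 bases before the gene's start in the RefSeq annotation. The motifs searched on both strands were the W box bound by WRKY factors (TTGACC or TTGACT), the rapid stress response element CGCGTT and the G box CACGTG. A W box was found in 26 of the 44 members (59.1%), and in 28.4% of 27443 promoters of the genome. Of the 18 members called in the mean difference of responses across genotypes, 8 (44.4%) held one. The rapid stress response element was in none of the 44 and in 2.59% of all promoters, and the G box was in 4 members, 3 of them among the 18, and in 6.49% of all promoters. The promoters shown are those of AP2C1 (chr2:12814021-12814270, plus strand) and PUB23 (chr2:15084560-15084809, minus strand), members called in both lines that held W boxes. They are written 5′ to 3′ on the strand of the gene, ending at the base before its start, with motifs in capitals. W boxes of both genes lie on the opposite strand and therefore read GGTCAA or AGTCAA.
AP2C1: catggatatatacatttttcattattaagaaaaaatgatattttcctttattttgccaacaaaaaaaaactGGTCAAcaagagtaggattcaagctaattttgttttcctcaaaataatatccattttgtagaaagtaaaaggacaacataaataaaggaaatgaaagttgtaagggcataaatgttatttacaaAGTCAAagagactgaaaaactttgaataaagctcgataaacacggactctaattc
PUB23: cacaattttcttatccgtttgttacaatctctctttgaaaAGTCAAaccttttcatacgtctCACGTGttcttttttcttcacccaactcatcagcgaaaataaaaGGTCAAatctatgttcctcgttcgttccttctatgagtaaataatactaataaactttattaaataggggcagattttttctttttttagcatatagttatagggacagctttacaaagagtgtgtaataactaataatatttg

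In AP2C1 the W boxes lay at −179 to −174 and −55 to −50 from the gene's start. In PUB23 they lay at −210 to −205 and −144 to −139, on either side of a G box at −188 to −183. HSPRO2, CAF1B and BAP1, also called in both lines' responses and differences, had none of the motifs in this window, and PUB22 held 3 W boxes. FLS2, EFR and LYK5 also had none, whereas BAK1 and MPK6, which were not called in any comparison, held 2 and 3 W boxes.

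Whether a line's response differed from that of its parent oePsbS was tested directly in a fit of all 30 libraries. For the double overexpressor the difference was called for 12 of 42 members, all higher, against 2.13% of all genes. For the triple overexpressor it was called for 21 of 42 (50%), all higher, against 3.12% of all genes. Both differences share the oePsbS libraries, so they are not independent. The 12 members were also among the 21: AP2C1, BAP1, CAF1A, CAF1B, CPK28, HSPRO2, LYK5, MKK9, MPK11, PUB22, PUB23 and PUB24. CAF1A had differences of 2.92 (SE 0.69, adjusted p = 0.0133) and 4.49 (SE 0.72, adjusted p = 0.000548), AP2C1 of 2.37 and 3.46, and HSPRO2 of 2.40 and 3.39. Each difference includes the response of oePsbS itself. A missing call in a line's own response, tested in 6 libraries, does not show how large that part is. Of the 12 of the double overexpressor 5, CPK28, LYK5, MKK9, MPK11 and PUB24, were not called in the line's own response, and in the triple overexpressor the same held for MKS1, MPK3, PUB24, SIB1 and SYP121. MPK3 differed by 1.14 (SE 0.21, adjusted p = 0.00141) in the triple overexpressor, where its own response was 0.71 and that of oePsbS −0.43. PUB24 differed by 1.75 (adjusted p = 0.0279) and 1.62 (adjusted p = 0.0325), where its response in oePsbS was −1.05. FLS2 differed by 0.90 (adjusted p = 0.000489) in the triple overexpressor, under the fold threshold, and BAK1 by 0.13 (adjusted p = 0.569). Without the library that lacked the excess of CA1 the differences of the double overexpressor were 2.70 for CAF1A, 1.53 for AP2C1 and 1.99 for HSPRO2, and the calls of BAP1, CPK28, MPK11, PUB22 and PUB24 were lost. The count for the double overexpressor was then 7, and it was also 7 without its water replicate 3, and 6 without oePsbS water replicate 3 or oePsbS bicarbonate replicate 2. For the triple overexpressor it ran from 19 to 23 when any 1 library was left out.

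**Figure D4:**
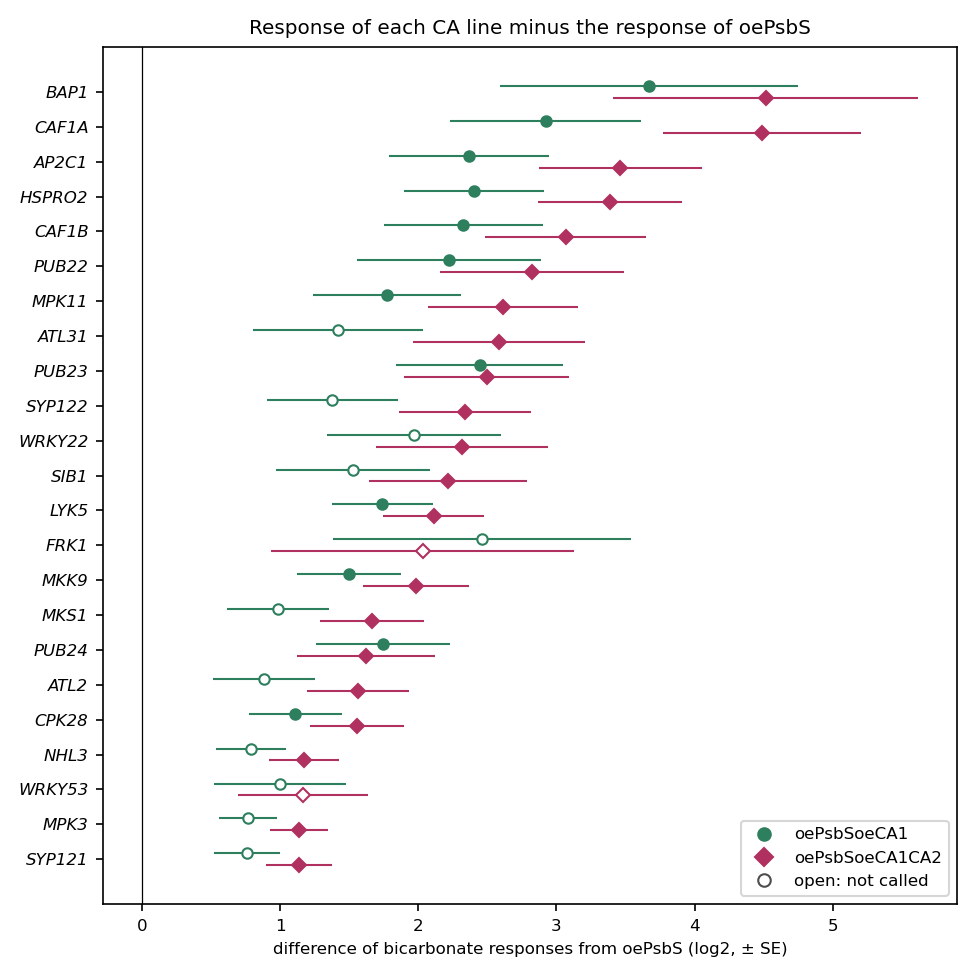
Bicarbonate response of the double overexpressor (green circles) and the triple overexpressor (red diamonds) minus that of oePsbS, in log2 units with standard errors (SE), for the 23 members called in a response or a difference; open symbols were not called. The red symbols lie to the right of the green in 21 of 23 rows, and BAP1 and CAF1A head the plot at 4.52 and 4.49 in the triple overexpressor. The error bars overlap in all but CAF1A and SYP122. Both differences share the oePsbS libraries, so the bars do not compare the lines, and the direct test between them called no member.

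The mean response of both lines was also set against the mean response of Col-0, npq4-1 and oePsbS. Of 42 members 18 were called (42.9%), all higher, against 2.14% of all genes, and the members' median was 0.90 where that of all genes was 0.00. The count ran from 15, without the double-overexpressor library that lacked the excess of CA1, to 20, and the 3 calls lost at 15 were CPK28, NHL3 and WRKY53. By role, both deadenylases, 4 of 5 ubiquitin ligases, 3 of 8 genes of the MAP kinase group, 3 of 5 transcription regulators, 2 of 4 early genes, 1 of 7 receptors, 1 of 3 early signalling genes, 1 of 4 secretion and wall genes and 1 of 3 membrane regulators were called. The triple and the double overexpressor were compared with each other in the same fit. None of the 42 members was called (0% of all genes), DESeq2 called none, and 5 members had an unadjusted p under 0.05. The differences, triple minus double, ran from −1.15 to 1.57 with a median of 0.37, and were positive in 34 members. For CAF1A, for example, the difference was 1.57 with a standard error of 0.67, so a larger response of the triple overexpressor was not shown, and errors of this size leave room for one.

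The libraries of a group differed in how far the members moved. Each library's level was expressed as the median log2 ratio to the mean of the 15 water libraries. For the 18 members called in the mean difference, this index was 0.90, 1.01 and 1.76 in the double overexpressor and 0.84, 1.78 and 2.11 in the triple overexpressor with bicarbonate. For the other 24 tested members it was 0.13, 0.09 and 0.34 in the double overexpressor and 0.06, 0.34 and −0.03 in the triple overexpressor. Since the members were split by the call on the same libraries, the contrast between both medians is a description only. With water the index of the 18 was 0.01, 0.05 and −0.04 in the double and −0.10, −0.63 and −0.31 in the triple overexpressor. The triple overexpressor's responses therefore started from a lower level. In the water libraries the median of the 24 ran from −0.26 to 0.14, and it was −0.30 in replicate 2 of oePsbS with bicarbonate. Replicate 3 of the double overexpressor with bicarbonate, which lacked the excess of CA1, was the highest library of its group in 17 of the 18 members. Replicate 1 of the triple overexpressor with bicarbonate was the lowest of its group in 17 of them. The index was also raised in single libraries of genotypes without the carbonic anhydrase transgenes. It was 0.38 in replicate 1 and −0.69 in replicate 3 of Col-0 with bicarbonate, and 0.81 in replicate 1 of npq4-1 with bicarbonate, close to that of the lowest double and triple libraries. The npq4-1 library exceeded all 15 water libraries in 14 of the 18 members and had the highest touch-induced sum outside the double and triple overexpressors, 286 CPM. All 6 bicarbonate libraries of both lines lay above the other 24 in 8 of the 42 tested members, against 0.532% of all genes: LYK5, AP2C1, WRKY11, CAF1A, CAF1B, PUB22, PUB23 and NHL3.

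**Figure D5:**
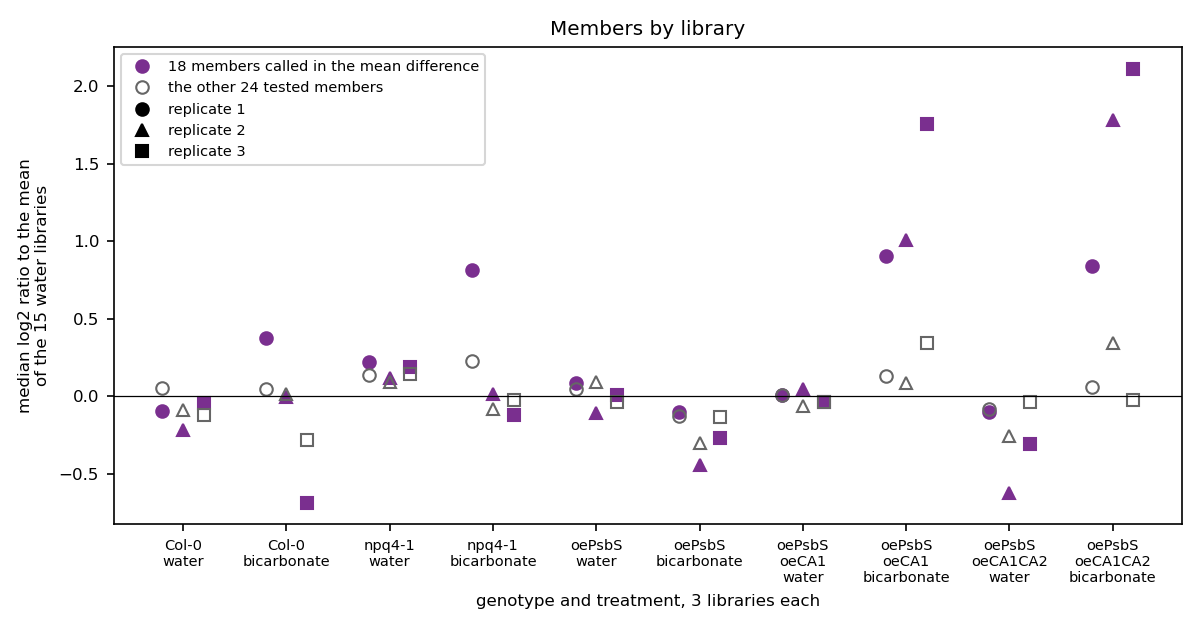
Median log2 ratio to the mean of the 15 water libraries, for the 18 members called in the mean difference of responses (purple, filled) and the other 24 tested members (open), in each library by genotype and treatment, with symbols for the 3 replicates. The filled symbols lie between 0.84 and 2.11 in the double and triple overexpressors with bicarbonate, but replicate 1 of npq4-1 with bicarbonate reaches 0.81.

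Without bicarbonate no member met the rule for a call in any genotype. With water, no member was called of the 42 tested against Col-0 in npq4-1 (0.158% of all genes), oePsbS (1.24%), the double overexpressor (0.0421%) or the triple overexpressor (0.0211%), and DESeq2 called none. At an unadjusted p under 0.05 there were 6, 5, 0 and 7 members. The medians were 0.20 in npq4-1, 0.10 in oePsbS, 0.02 in the double overexpressor and −0.14 in the triple overexpressor, and in npq4-1 38 of the 42 values were positive. FLS2 in the triple overexpressor was the 1 member with an adjusted p under 0.05 (−0.51, adjusted p = 0.0386), within the fold threshold. With bicarbonate, the double overexpressor was higher than oePsbS in 17 of 42 members (40.5%), against 3.16% of all genes, and the triple overexpressor in 19 of 42 (45.2%), against 1.88%. No member was called lower in either comparison, and both use the same oePsbS libraries. The members' median was 0.86 in the double and 0.86 in the triple overexpressor. BAP1 had log2 fold changes of 3.91 and 4.18, CAF1A of 3.04 and 3.65, and AP2C1 of 2.86 and 3.47. The ubiquitin ligases were called in 5 of 5 members in the double and 4 of 5 in the triple overexpressor, with PUB24 at 1.30 (adjusted p = 0.0116) and 0.87 (adjusted p = 0.135). WRKY11 was called in this comparison alone, in the triple overexpressor (1.09, adjusted p = 1.64e-05), and SIB1 in both lines, at 1.80 (adjusted p = 0.00348) and 1.68 (adjusted p = 0.00955). Without the double-overexpressor library that lacked the excess of CA1 the count for that line was 13, of which 12 were among the 17, and BAP1, CAF1A and AP2C1 stood at 3.39, 2.82 and 2.03. Over all comparisons 18 of the 42 tested members were never called: BAK1, BIK1, BON1, CERK1, EFR, FLS2, GSL5, MKK4, MKK5, MPK6, NHL10, PEN3, PEPR1, PEPR2, PROPEP1, RBOHD, RIN4 and WRKY29.

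Another 39 genes of the pathway, listed by function and not among the members, were tested as well. They include further receptors and co-receptors, cytoplasmic kinases, G proteins, calcium channels and kinases, the MEKK1 to MPK4 cascade and phosphatases. None was called in the responses of Col-0, npq4-1, oePsbS or the double overexpressor, where 0.313%, 0.252%, 1.34% and 0.775% of all genes were called. In the triple overexpressor 1 was called (2.56%), against 1.31% of all genes. The unadjusted p was under 0.05 in 1, 3, 22 and 9 of them in the first 4 of these genotypes, and 11 of the 22 in oePsbS also had an adjusted p under 0.05. The median of the list was −0.25 in oePsbS, 0.05 in the double overexpressor and 0.14 in the triple overexpressor. The gene called was SOBIR1 (AT2G31880), the adaptor kinase of receptor-like proteins. It stood at 93.9, 63.4 and 82 CPM with water and 148, 231 and 179 CPM with bicarbonate in the triple overexpressor (1.23, SE 0.18, adjusted p = 0.00619). In npq4-1 it stood at 150.3, 149 and 154 CPM with water and 205, 116 and 106 CPM with bicarbonate, so that the triple overexpressor's values were not above those of every other genotype. In the differences from oePsbS, 2 of the 39 were called for the double overexpressor (5.13%, against 2.13% of all genes) and 3 for the triple overexpressor (7.69%, against 3.12%), all higher: SOBIR1 (1.25 and 1.75), AT3G09830 (1.04 and 1.11) and, in the triple overexpressor, BIR1, a receptor kinase that binds BAK1 (1.05).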

How the data were processed

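Rosette RNA was sequenced in 30 libraries, and the authors deposited a Salmon table of each, mapped to TAIR10, with estimated counts and TPM per transcript. The Salmon version is not given in the sources used here. Both values were summed over the transcripts of a locus, and the estimated counts were rounded. Libraries held 15346368 to 18326430 counts, and precision is low at a few counts per gene.

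Genes were filtered with filterByExpr (minimum count 10, total 15) and tested with edgeR 4.0.16 in R 4.3.3 (TMM, quasi-likelihood F test, Benjamini-Hochberg over all genes). Bicarbonate responses were fitted in the 6 libraries of a genotype, other comparisons in all 30 libraries (18999 genes). Standard errors were derived from the test, as the absolute log2 fold change divided by the square root of the F statistic. CPM used TMM library sizes. The script was tested on simulated data. Groups came from the sample labels, and no sample was left out.

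The members, the marker and pathway lists and the tests were chosen with earlier results of these data known. Values per library are given for members called in a response or a difference of responses and for 9 core genes. Promoters were read from TAIR10.1 and are credited to RefSeq. Alternatives were RLE size factors, no filter, DESeq2 1.42.0, limma 3.58.1 on log2(TPM + 1), a replicate block, other sets of libraries, adjusted p alone and leaving out each library. Protein sequences were not used here.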

Additional observations from a re-analysis of the deposited data

Results flagged for a closer look

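The bicarbonate responses of some members differed between genotypes by the test of the difference itself, the response of a line minus that of oePsbS, in the fit of 30 libraries with edgeR's quasi-likelihood test. Values are log2 differences, and all were positive. For the 12 members called in both lines, the double overexpressor is given first. In that line BAP1, CPK28, MPK11, PUB22 and PUB24 lost the call without bicarbonate replicate 3, the library that lacked the excess of CA1, and each lost it in 7 to 9 of 19 alternatives. The differences were 3.67 and 4.52 for BAP1, 2.92 and 4.49 for CAF1A, and 2.45 and 2.49 for PUB23. Next came 2.40 and 3.39 for HSPRO2, 2.37 and 3.46 for AP2C1, and 2.33 and 3.07 for CAF1B. They were followed by 2.22 and 2.82 for PUB22, 1.77 and 2.61 for MPK11, and 1.75 and 1.62 for PUB24. The smallest were 1.74 and 2.11 for LYK5, 1.5 and 1.98 for MKK9, and 1.11 and 1.56 for CPK28. For the triple overexpressor alone the difference was 2.59 for ATL31, 2.34 for SYP122, 2.31 for WRKY22, 2.22 for SIB1 and 1.67 for MKS1. It was 1.57 for ATL2, 1.17 for NHL3, 1.14 for MPK3 and 1.14 for SYP121.

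No member was called between the triple and the double overexpressor by the same test. A call in the triple overexpressor alone therefore does not show a difference between the lines, and the errors leave room for one. The touch-induced genes were raised in the same libraries, and their part in these differences was not tested.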

How the results depend on the processing

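No called value of a member changed sign under any alternative, and 155 gene values under alternatives lost the call while 1952 kept it. The alternative of adjusted p alone only drops the fold threshold from the main fit, so it could not lose a call or change a sign. Counts are of members called. Without the fold threshold there were 8 in the response of oePsbS, 1 in the triple overexpressor against Col-0 with water, 27 in the double overexpressor against oePsbS with bicarbonate and 29 in the mean difference of responses. With limma on log2(TPM + 1) there were 0 in the response of oePsbS and 6 in that of the double overexpressor. With only the groups compared in the fit there was 1 in oePsbS against Col-0 with water. Other alternatives that kept all libraries stayed within 1.5 times of each count.

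Leaving out 1 library at a time gave 0 to 1 in the response of npq4-1, 0 to 2 in oePsbS, 2 to 15 in the double overexpressor and 9 to 20 in the triple overexpressor. It gave 6 to 12 for the difference of the double overexpressor from oePsbS, 19 to 23 for that of the triple overexpressor, 12 to 18 and 17 to 21 for both lines against oePsbS with bicarbonate, and 15 to 20 for the mean difference. Counts of 0 in Col-0, in the comparisons with water and between both lines did not change. Of the calls, 2 of 10 in the double overexpressor, 9 of 17 in the triple overexpressor and 14 of 18 in the mean difference held in every alternative.

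Same-numbered water and bicarbonate libraries deviated together, with a correlation over 0.1, in 3 of 15 pairs, so the numbers were not taken as pairing. With the replicate block there were 11 calls in the double overexpressor, 17 in the triple overexpressor, 1 in oePsbS, 13 and 21 in the differences from oePsbS, and 18 in the mean difference. Depth limits the members under a few CPM, such as PUB22, BAP1 and FRK1.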
